A study of Mus musculus with 16 samples.

Results

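The clustered protocadherin genes of the mouse (Pcdha, Pcdhb and Pcdhg) were taken as everything the deposited lists hold inside 1 stretch of chromosome 18, from 37.08 to 38.01 Mb in mm9, a span of 930 kb. RefSeq places 14 Pcdha, 22 Pcdhb and 22 Pcdhg entries in that order in GRCm38.p6, 58 in all and 1 of them a pseudogene, with Slc25a2 and Taf7 between Pcdhb and Pcdhg and Diaph1 after Pcdhg. The lists name no gene and are in another build, so no row was given a gene name and every result is described by mm9 position. Of the CTCF ChIP peaks listed on chromosomes 1 to 19 and X, the span held 66 of 45377 and 76 of 76745 in libraries 1 and 2 of day 0 and 69 of 41264 in that of day 3. It also held 48 merged RNA regions of 42918, and between 23 and 58 CLIP peaks a library.

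Clustered protocadherins are cell-surface adhesion proteins that give neighbouring neurons different surface identities. Each alternative first exon of the alpha and gamma families has its own promoter and is spliced to exons shared by its family, while a beta gene is a single coding exon. CTCF is a DNA-binding protein that, with cohesin, holds distant stretches of chromatin together, and it is known to bind protocadherin promoters and enhancers. A single neuron uses only a few of these promoters. Tissues other than the nervous system are not where the genes are best known.

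All samples were female mouse embryonic stem (ES) cells, pluripotent cells grown from early embryos. Day 0 cells were undifferentiated, adherent and grown with LIF, the cytokine that maintains pluripotency. Day 3 cells were differentiating and had spent 3 days in suspension without LIF. ChIP samples are given as strain 129S1/CastEiJ x 129S1, while the samples for RNA and for CLIP are given as CAST/Ei x 129/Sv/Jae. The study set the RNAs bound by CTCF, found by ultraviolet crosslinking and immunoprecipitation with an anti-FLAG antibody (CLIP), beside CTCF's places on chromatin. The lists analysed came from 9 of 16 samples, namely CTCF ChIP (2 at day 0, 1 at day 3), ultraviolet-treated CLIP (2 at each day) and stranded nuclear RNA-seq (1 at each day). Samples without ultraviolet treatment and ChIP inputs were not analysed here. Nothing says that replicates came from separate cultures, so their spread may be technical. ES cell, differentiation and neuron markers could not be looked up, because rows carry no gene names.

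CTCF peaks were dense along the protocadherin span in every ChIP library. Day 0 libraries had 71.0 and 81.7 peaks per Mb, and that of day 3 had 74.2, against 17.2, 29.1 and 15.6 per Mb over chromosomes 1 to 19 and X in the same libraries. The span therefore held 4.13, 2.81 and 4.74 times the density of its own list, with a mean of 3.89 ± 0.988 (SD, n = 3 libraries). Of 2826 consecutive windows of the same length, 3, 85 and 2 held at least as many peaks as the span, where the median window held 13, 22 and 11 peaks. The neighbouring stretch of equal length before the span held 29, 51 and 27 peaks and the one after it 31, 58 and 32. The span stood near the top of the windows in each library, and lowest in rank in day 0 library 2, which has the longest list.

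**Figure D1:**
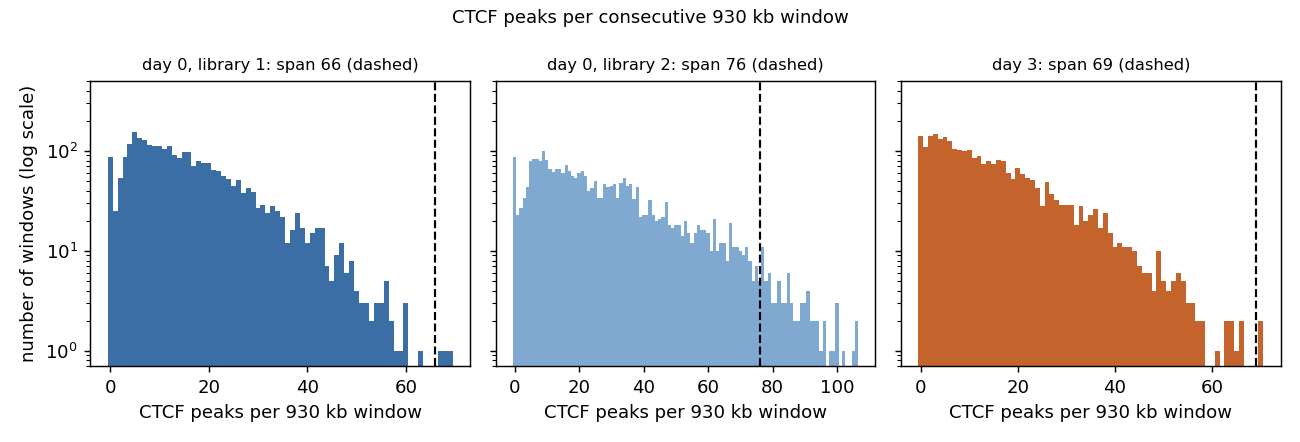
Number of consecutive 930 kb windows of chromosomes 1 to 19 and X (vertical, log scale) by their count of CTCF peaks (horizontal), 1 panel per ChIP library. Dashed lines mark the protocadherin span, at 66, 76 and 69 peaks, with 3, 85 and 2 windows at or above it.

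By median, the peaks of the span also scored above their lists. A score is the peak's own value as the authors gave it, and its percentile is its rank within its library's list. The median score in the span was 29.7 against 26.8 in day 0 library 1, 33.4 against 16.6 in day 0 library 2 and 34.1 against 29.6 at day 3. In the same order 41 of 66, 64 of 76 and 42 of 69 span peaks were above their list's median. In the highest 10% of their lists were 4 (6.06%), 16 (21.1%) and 10 (14.5%), so the libraries differed in how many of their highest peaks lay in the span. Day 0 library 1 had fewer there than the 10% of its whole list. Neighbouring peak centres lay a median of 6.17, 5.99 and 6.12 kb apart, against 26.8, 14.6 and 25.3 kb over the whole lists. Peaks covered 14.5%, 19.5% and 15.6% of the span.

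Peaks were called in each library separately, and peaks that overlapped by at least 1 bp were joined into sites. The span had 83 sites, of which 54 (65.1%) were held by all 3 libraries. Over all chromosomes 27464 of 93527 sites (29.4%) were. Of the other sites, 11 were held by day 0 library 2 and day 3, 4 by both day 0 libraries alone, 6 by day 0 library 1 alone, 7 by day 0 library 2 alone and 1 by day 3 alone. No site was held by day 0 library 1 and day 3 without day 0 library 2. The centres of neighbouring shared sites were a median of 7.18 kb apart (quartiles 5.26 and 13.5 kb), against 33.3 kb over all chromosomes. Gaps under 10 kb made up 35 of 53 (66.0%) in the span and 19.8% over all chromosomes.

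Most CTCF peaks of differentiating cells were already listed in undifferentiated cells. Of the 69 day 3 peaks, 56 (81.2%, exact Clopper-Pearson 95% interval 69.9% to 89.6%) overlapped a peak in both day 0 libraries. The share over all 41264 day 3 peaks was 67.5%. At least 1 day 0 library held 68 of the 69 (98.6%), against 88.1% of all day 3 peaks. Between the 2 day 0 libraries, 60 of 66 peaks (90.9%) of library 1 were found in library 2 and 58 of 76 (76.3%) of library 2 in library 1, so replicates of 1 day also differed. Of the library 2 peaks that library 1 also held, 54 of 58 (93.1%) were found at day 3, against 84.6% on all chromosomes. With 1 library at day 3 the days cannot be tested, neighbouring peaks are not independent, and the intervals cover counting error only.

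The sites of all 3 libraries together fell into runs along the span, taking a gap of more than 40 kb between neighbouring sites as a break. The first run, from 37088521 to 37188847, had 15 sites, and its 9 shared sites started at 37088521, 37097663, 37104484, 37111103, 37118646, 37126040, 37132487, 37156364 and 37163270. The second was a single shared site at 37248385 to 37250813. The third had 2 sites, the shared one starting at 37376091. No peak of any library lay in the 93 kb from 37266000 to 37358999, between those runs.

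The fourth run was the longest, from 37428133 to 37679072, with 33 sites of which 22 were shared, at a median spacing of 6.60 kb. It is joined across the stretch from 37518122 to 37559366 only by a site at 37532214, held by day 0 library 2 alone at percentile 2.32. Without that site the stretch exceeds the 40 kb break, so in day 0 library 1 and day 3 the run is broken there. Its shared sites started at 37453338, 37459315, 37461768, 37464957, 37478897, 37492376, 37498834, 37513548, 37570223, 37572504, 37579589, 37594068, 37600839, 37602985, 37606228, 37631884, 37634200, 37643533, 37648009, 37655457, 37672183 and 37676673. The fifth was a single site at 37729328 to 37731738. The sixth run, from 37812537 to 38002374, had 31 sites with 20 shared at a median spacing of 5.99 kb. Those started at 37812537, 37820160, 37832686, 37838695, 37843713, 37852844, 37865532, 37878799, 37884113, 37889350, 37895472, 37900480, 37905513, 37909931, 37914238, 37919915, 37924372, 37930769, 37967502 and 37999868. The order of the runs is that of the chromosome, and no family name is given to them.

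**Figure D2:**
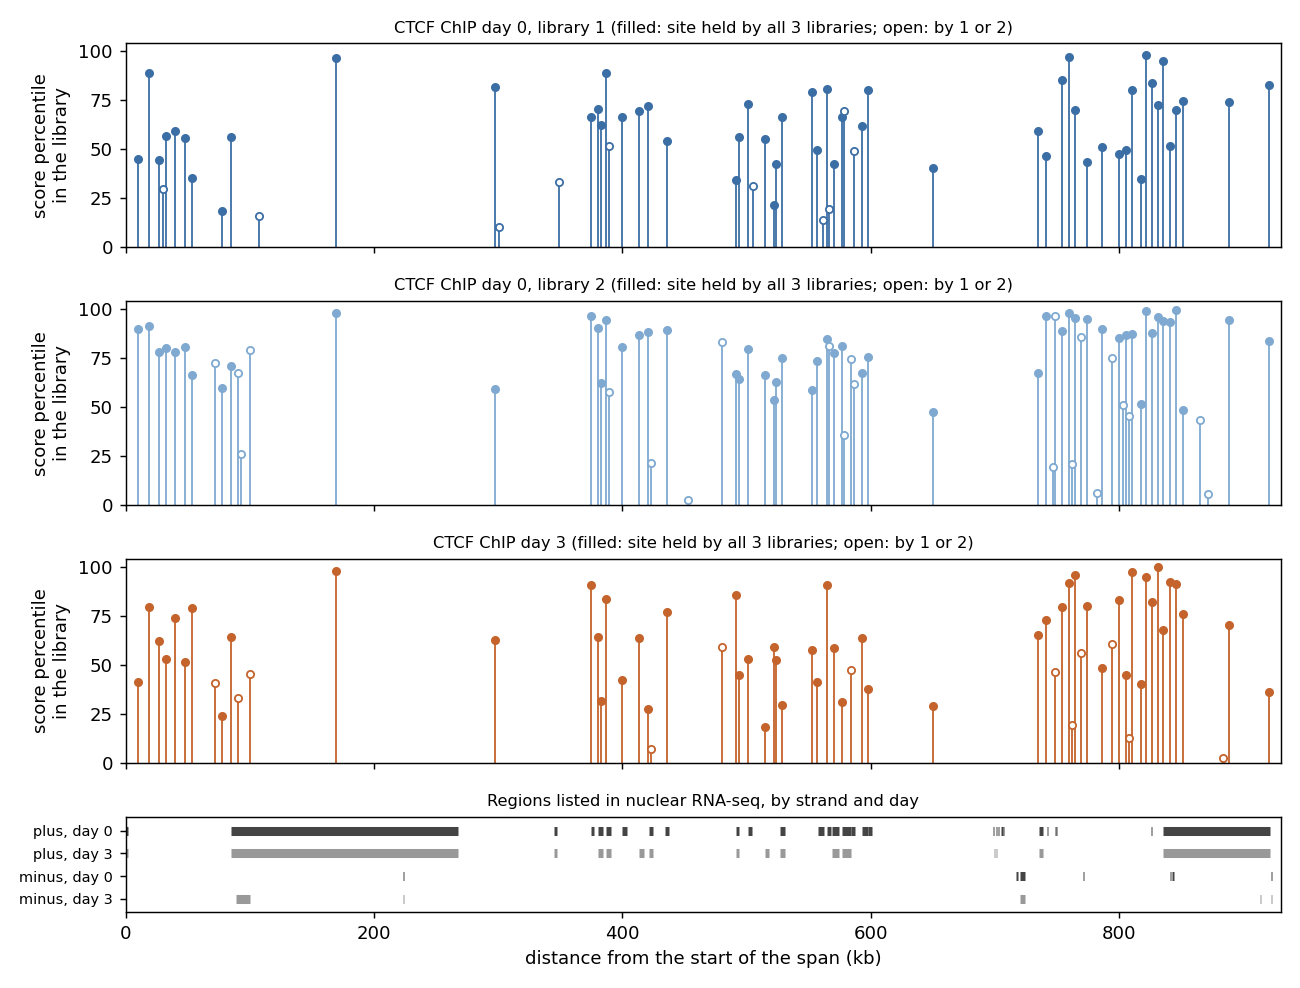
CTCF sites by distance from the start of the span (kb, horizontal) and score percentile within each library (vertical), with RNA regions by strand and day at the bottom. Filled points are the 54 sites held by all 3 libraries and open points those held by fewer. The runs are those of all sites together, and the 3 libraries show the same empty stretch. Run 4 is broken in day 0 library 1 and day 3, which lack the site at 37532214.

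Of the long runs, the sixth had the highest median score among its shared sites in each library. Its median percentile was 71.4 and 91.4 at day 0 and 79.9 at day 3. In the fourth run it was 66.4 and 76.6 at day 0 and 55.4 at day 3, and in the first 55.8, 78.1 and 62.4. The ranges of single sites overlapped widely, for the lowest shared site of the sixth run was at percentile 34.9, 48.2 and 36.0.

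**Figure D3:**
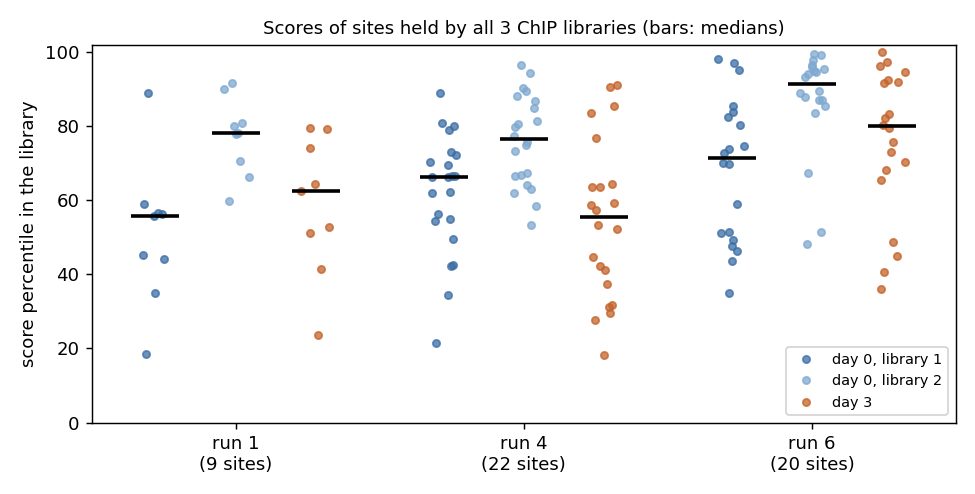
Score percentile (vertical) of the shared sites of the runs 1, 4 and 6 in each ChIP library, 1 point per site, with bars at the medians. The sixth run has the highest bar in each library (71.4, 91.4 and 79.9), while the points of the runs overlap.

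The highest shared site by mean percentile was the isolated one at 37248385 to 37250813, at percentiles 96.5 and 98.0 at day 0 and 97.8 at day 3 (scores 70.9, 68.8 and 81.0). It was nearly level across libraries. The next, at 37900480, had percentiles 98.2, 99.2 and 94.7 (scores 81.1, 83.0 and 67.6), and the one at 37838695 had 97.1, 97.9 and 91.9 (scores 73.4, 67.9 and 61.5). The site at 37909931 had the highest day 3 score of the span, 132.0 at percentile 99.9, and scores of 38.9 and 58.6 (percentiles 72.6 and 95.9) at day 0. It was higher at day 3 than in both day 0 libraries, which themselves differed. The sites at 37464957 (scores 54.1, 54.4 and 50.6) and 37889350 (44.6, 42.0 and 78.1) followed. The last of the 8 highest were at 37843713 (37.2, 57.3 and 72.7) and 37924372 (37.0, 88.1 and 60.9). Of these 8, 6 lay in the sixth run.

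Of the sites with a day 3 peak, 11 were missing from 1 day 0 library and 1 from both. The 8 with the highest day 3 percentile were all missing from day 0 library 1 and present in day 0 library 2. They started at 37873281, 37559366, 37848322, 37662861, 37827348, 37178629, 37150651 and 37169105, with day 3 percentiles of 61.0, 59.3, 56.0, 47.5, 46.4, 45.3, 40.9 and 33.2. The other 3, at 37841254, 37886769 and 37502544, were lower, at 19.4, 12.7 and 6.88. In day 0 library 2 the 8 sites were at percentiles 74.8, 83.1, 85.6, 74.7, 96.3, 79.0, 72.3 and 67.5. The 1 site of day 3 alone, at 37963079 to 37964317, had a score of 16.0 at percentile 2.51, near the bottom of its list. Over the 54 shared sites Spearman's rho of the score percentiles was 0.452 between the day 0 libraries, 0.376 between day 0 library 1 and day 3 and 0.602 between day 0 library 2 and day 3. These are descriptions across sites that share their libraries. Over all 27464 shared sites the same values were 0.494, 0.554 and 0.521.

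The allele lists gave the CTCF peaks of the span to 1 side only. A peak listed as "cas" or "mus" was assigned by the authors to 1 parental genome, the labels of their lists. In the span 0 of 64, 0 of 71 and 0 of 68 allelic peaks were listed as cas, which allows shares of up to 4.69%, 4.23% and 4.41% (3 counts of the total), or up to 5.60%, 5.06% and 5.28% by the exact two-sided 95% interval. The rest of the chromosome was much the same. On chromosome 18 the cas list held 1, 5 and 2 peaks beside 1177, 1998 and 1056 mus peaks, while over chromosomes 1 to 19 it held 9.68%, 10.9% and 8.71%. Of the allelic CLIP lists, only the plus strand of day 0 library 1 held any peak on chromosome 18, so the others say nothing of the span. In the span it had 3 cas and 6 mus peaks (33.3% cas, exact interval 7.49% to 70.1%). On chromosome 18 as a whole that list had 383 cas and 448 mus peaks (46.1% cas). The strain names of ChIP differ from those of CLIP, and their part in these counts was not tested.

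In 1 class of RNA rows of the span, the plus-strand TCONS rows defined next, most starts lay on CTCF peaks. A deposited RNA row has a TCONS identifier (transcripts named in a merged assembly) or CUFF identifiers only (fragments assembled in the library). Of 24 plus-strand TCONS rows of at least 300 bp, 21 (87.5%) started inside a CTCF peak of all 3 ChIP libraries. Over all chromosomes 8.98% of 20831 TCONS rows of that length, on both strands, did. Peaks are wide, with a median of 1994, 2303 and 2050 bp in the span and 1964, 2013 and 2005 bp over the lists. Among plus-strand rows with CUFF identifiers only, 2 of 15 (13.3%) did, against 8.21% on both strands of all chromosomes. Sites held by all 3 libraries cover 15.8% of the span, so that 13.3% is no excess over their coverage. Of 3 minus-strand TCONS rows of the span 0 did, and of 8 minus-strand rows with CUFF identifiers only 1 (12.5%) did. The exceptions among the plus-strand TCONS rows were at 37080283 and 37424652, which had no peak at their start, and at 37663926. The start of the last lay in peaks of day 0 library 2 and day 3 but not of day 0 library 1. The split by identifier and this comparison were chosen after values had been seen, rows of 1 cluster are not independent, and no test was made.

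At plus-strand TCONS rows of the span, peaks sat mostly on the start itself. In the 250 bp just before such a start there were 0.625 peak centres per start and library. Over TCONS rows of all chromosomes there were 0.0344. Of the 19 TCONS row starts in and just before the fourth run, 17 were in a peak of day 0 library 1, 18 in one of day 0 library 2 and 18 in one of day 3. The peak centre lay at a median of -73.5, -33.8 and -85.3 bp from the start in these libraries, a minus sign meaning upstream. A second peak centre 1.5 to 3 kb downstream followed 7 of 17, 7 of 18 and 6 of 18 of these starts, at a median of 2218, 2238 and 2234 bp. That distance is close to the median peak width in the span (1994, 2303 and 2050 bp). Overlapping peaks were joined, so the centres of neighbouring sites cannot lie much closer than a site is wide. By that rule shared sites lay at least 2.26 kb apart in the span and 2.11 kb over all chromosomes. The part of peak width in the distance was not tested. Over all chromosomes such a second peak followed 5.38%, 6.07% and 3.86% of the TCONS starts that lay in a peak. First peaks had median percentiles of 66.4, 80.2 and 50.3 and second peaks 51.5, 61.7 and 38.2, the second lower in each library. The same order held over all chromosomes, at 71.1, 62.8 and 61.4 for first and 56.0, 49.7 and 58.8 for second peaks.

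**Figure D4:**
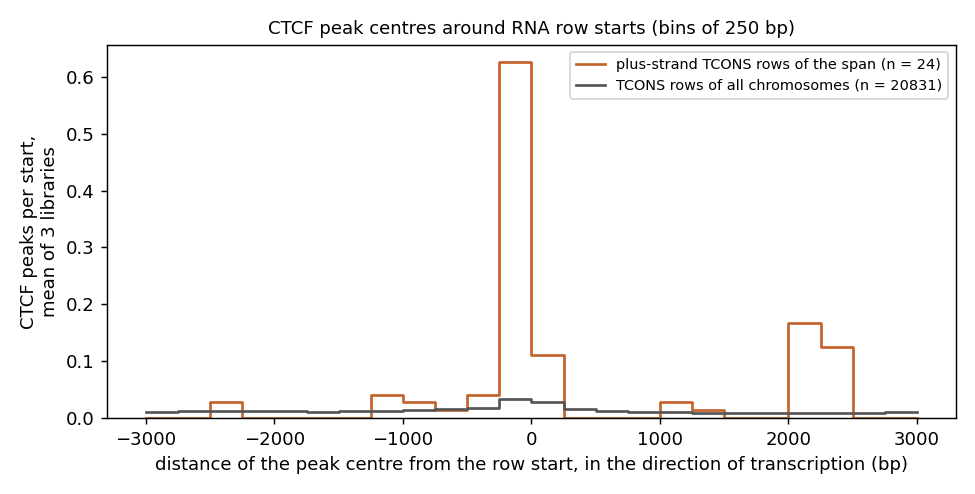
CTCF peak centres per row start, as the mean of 3 ChIP libraries (vertical), in 250 bp bins by distance from the start in the direction of transcription (bp, horizontal). The 24 plus-strand TCONS rows of the span peak at 0.625 just before the start and again past 2000 bp, where the 20831 rows of all chromosomes stay flat. The second distance is close to the width of a peak, and the part of peak width in it was not tested.

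Plus-strand TCONS rows of the span had little nuclear RNA, both with and without a CTCF peak of all 3 libraries at their starts. Row values were read as FPKM (fragments scaled by row length and library depth), although the lists name no unit. Of the 21 rows with a start in peaks of all 3 libraries, 17 were listed at day 0 with a median of 0.19 (0.08 to 1.03) and 12 at day 3 with a median of 0.19 (0.04 to 3.25). Over all chromosomes, TCONS rows starting in such peaks had medians of 5.73 at day 0 and 6.43 at day 3, and rows starting in no peak 3.99 and 4.79. At day 0 1 of the 17 rows reached an FPKM of 1 (5.88%), against 82.9% of the rows starting in such peaks over all chromosomes. All 24 plus-strand TCONS rows of the span were as low, with medians of 0.145 at day 0 (20 listed) and 0.205 at day 3 (14 listed). Those without a peak of all 3 libraries at their start, at 37080283, 37424652 and 37663926, were at 0.07, 0.06 and 0.10 at day 0. At day 3 the first was at 0.21, the second at 0.76 and the third was not listed. The third start lay in peaks of day 0 library 2 and day 3. These are 3 rows with 1 RNA library a day, and a link between CTCF at the start and RNA level was not tested. In bulk samples, few cells with the RNA and little RNA per cell cannot be told apart.

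Among the 19 TCONS rows in and just before the fourth run, that at 37678007 was the highest at day 0, at 1.03, and was not listed at day 3. The row at 37424652, 1 of those without a CTCF peak at its start, was at 0.06 at day 0 and 0.76 at day 3, the highest of the 19 at day 3. The row at 37581072 was at 0.45 at day 0 and not listed at day 3, and that at 37467109 at 0.41 and 0.12. The row at 37501356 went from 0.25 to 0.50, and that at 37460453 from 0.14 to 0.27. Both directions occurred at levels under 1, with 1 library a day and no error to set them against. Another pair of longer rows ended together at 37347311. The one listed at day 0 started at 37164853 (FPKM 0.885) and the one listed at day 3 at 37249790 (0.65), each start inside a CTCF peak of all 3 libraries, and the second start in the isolated site with the highest mean percentile. In the sixth run the row at 37815561 was at 0.69 and 0.58.

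Of the merged RNA regions of the span, 42 were listed at day 0 and 23 at day 3. Rows of both days that overlapped on a strand were merged, and a region took the highest FPKM of its rows. Of 48 regions, 17 (35.4%) were listed at both days, 25 (52.1%) at day 0 alone and 6 (12.5%) at day 3 alone, against 53.7%, 36.6% and 9.71% over all chromosomes. Of the 23 plus-strand regions with a TCONS row, 12 (52.2%) were listed at both days. On all chromosomes 81.9% of regions with a TCONS row, of both strands, were. The 2 sets differ in level, with medians among those listed at day 0 of 0.15 in the span and 5.135 on all chromosomes. The day 3 list was itself shorter, with 28677 rows against 40668. The parts of list length and of level in these shares were not tested.

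Of 21 regions of at least 300 bp with a mean FPKM of at least 1, 6 were higher at day 3 by a log2 change of at least 1 and 14 lower. Over all 32591 such regions 21% were higher and 36.3% lower, with a median log2 change of -0.11. Changes are on the log2(FPKM + 1) scale, which understates those of low regions, and there is no replicate. Of the 14 lower regions 13 were listed at day 0 alone. They were short fragments with CUFF identifiers only, at an FPKM between 2.60 and 9.23. Plus-strand ones started at 37782547, 37785307, 37786722, 37821752, 37822618, 37823185, 37828581, 37829193, 37853870 and 37912664, and minus-strand ones at 37851011, 37921386 and 37922829. Where only the 6 regions listed at both days were counted, 4 were higher and 1 lower. Over all chromosomes that count also turned, to 4595 higher and 2741 lower of 21253, and it leaves out by its construction every region lost from a list.

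The 4 regions listed at both days and higher at day 3 were plus-strand at 37781108 (4.59 to 57.96) and 37830554 (4.77 to 65.08), and minus-strand at 37303085 (6.24 to 24.69) and 38002312 (3.82 to 18.21). The other 2, at 37779390 (5.07, plus strand) and 37812105 (8.99, minus strand), were listed at day 3 alone. All 6 were between 465 and 1133 bp long and without a TCONS row. In each of the 4 the rows of the days differ in extent, since the day 3 value came from a row of 197, 181, 355 and 322 bp in the order above, and the day 0 value from one of 470, 522, 1133 and 481 bp. These values compare different short fragments. The remaining region of the 21, the minus-strand one at 37800556 to 37803858, changed little on this scale, from 2.69 to 4.53 (log2 change 0.58). A further region, at 37678007, reached an FPKM of 1 at day 0 but not on average.

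The last plus-strand region of the span, 37915427 to 38001527, held the most CLIP peaks of the regions wholly inside the span, summed over the 4 libraries (12 and 19 at day 0, 0 and 20 at day 3). In day 3 library 1 it held none, while the region at 37164853 held 4 there. At day 3 it was 1 row of 86101 bp at an FPKM of 3.25. At day 0 it was 3 rows without TCONS identifiers, 1 of 35368 bp from 37966160 at 12.2 and 2 short ones at 16.1 and 9.85. The change of -2.01 used the highest day 0 row, and the rows of the days differ in extent.

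In 3 of 4 libraries, CLIP peaks of the span lay mainly on the plus strand and mainly at its far end. Day 3 library 1 went against both, with 8 plus-strand and 15 minus-strand peaks and 2 of the 8 in the sixth CTCF run. Plus-strand peaks numbered 34 and 46 in undifferentiated cells, and 8 and 30 in differentiating cells. Per 10000 peaks of the library these are 2.98 and 2.16 at day 0 and 0.752 and 1.81 at day 3. Both day 0 values were above both day 3 values, and the day 3 libraries differed most from each other. The means were 2.57 ± 0.583 (SD, n = 2) and 1.28 ± 0.749 (SD, n = 2), and the two-sided exact permutation p was 0.333, which is the smallest that 2 against 2 can give. On leaving out 1 library the log2 ratio of the means ran from -1.77 (without day 3 library 2) to -0.51 (without day 3 library 1). On the minus strand, outside a region that runs past the end of the span, undifferentiated cells had 2 and 5 peaks and differentiating cells 9 and 10. That is 0.175 and 0.235 against 0.846 and 0.604 per 10000. Of the day 3 peaks, 3 of the 9 and 7 of the 10 lay in the region at 37800556 to 37803858. That region held none at day 0, so the minus-strand counts rest in large part on it. They were not tested.

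**Figure D5:**
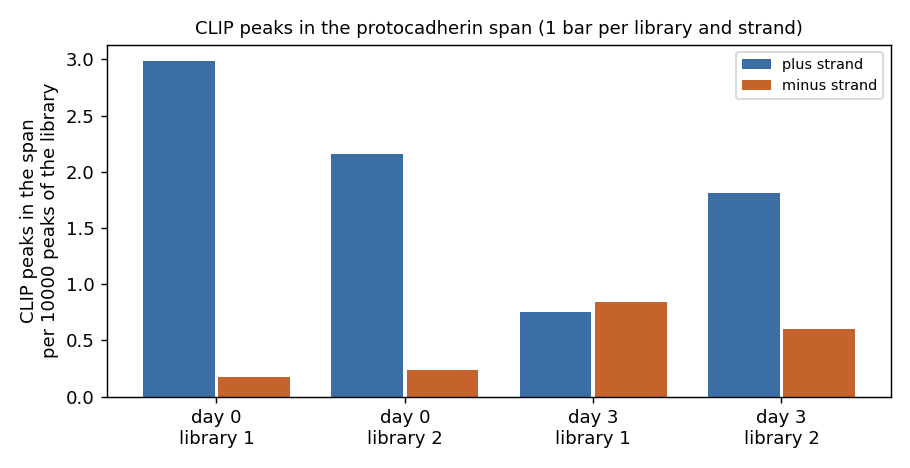
CLIP peaks in the span per 10000 peaks of the library (vertical), 1 bar per library and strand. Day 0 bars for the plus strand (2.98 and 2.16) are above those of day 3 (0.752 and 1.81). Minus-strand bars leave out the region that runs past the end of the span. They are higher at day 3 (0.846 and 0.604) than at day 0 (0.175 and 0.235). The region at 37800556 to 37803858 holds 3 and 7 of the minus-strand peaks of day 3 and none of day 0.

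The stretch of the sixth CTCF run held 26 of 34, 38 of 46, 2 of 8 and 28 of 30 plus-strand CLIP peaks in the 2 day 0 and 2 day 3 libraries. The fourth run, where most RNA rows with CTCF at their starts lie, held 0, 3, 0 and 0. Thus 3 of 4 libraries had most of their plus-strand peaks in the sixth run, and day 3 library 1 did not. Of 114 distinct plus-strand CLIP sites, 2 (1.75%) were found in at least 2 libraries, against 11.0% of all CLIP sites on all chromosomes. They lay at 37967197 to 37967308 and at 38001397 to 38001454, each in both day 0 libraries and day 3 library 2. On the minus strand the sites at 37990442 to 37990505, 38003412 to 38003483, 38003794 to 38003831, 38003940 to 38004049 and 38004520 to 38004558 were found in at least 2. All but the first of these lie in the region that runs past the end of the span. Plus-strand CLIP peaks overlapping a shared CTCF site numbered 9 of 34, 14 of 46, 1 of 8 and 9 of 30. Shared CTCF sites cover 15.8% of the span but 26.4% of the sixth run, where most of these CLIP peaks lie. Inside that run the overlapping peaks numbered 9 of 26, 14 of 38, 1 of 2 and 8 of 28, and no test was made.

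Peak bases per region were compared between days with limma, which was fitted over all regions with peaks in at least 2 libraries. It called 0 of 12325 regions (0%) at an adjusted p under 0.05, with 899 at an unadjusted p under 0.05 and a smallest adjusted p of 0.662. In the span 4 regions were tested and 0 called. The minus-strand region at 37800556 to 37803858 held no peak in either day 0 library (0 and 0) and 3 and 7 in those of day 3, a log2 difference of 5.26 ± 1.46 (SE) that depends on the pseudocount (limma adjusted p 0.662). It entered the test only through the day 3 libraries, where it is high, so its direction supports nothing. Limma without the trend in the spread and with a smaller pseudocount gave it an adjusted p of 0.0453. The plus-strand region ending at 38001527 held 12 and 19 peaks before differentiation, and 0 and 20 after 3 days, a log2 difference of -3.20 ± 2.04 (SE; limma adjusted p 0.757). It rests on day 3 library 1, for without it the difference was 0.25, and without day 3 library 2 it was -6.66 (limma adjusted p 1.39e-05). The regions at 37815561 (0 and 0 peaks against 1 and 1, also tested only through day 3) and 37164853 (3 and 0 against 4 and 0) had limma adjusted p of 0.685 and 0.999.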

How the data were processed

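The analysed lists cover CTCF ChIP, CLIP and nuclear RNA-seq of mouse ES cells at day 0 and day 3. The submitters' processing notes name Cufflinks 2.1.1, bedtools 2.17.0, Novoalign 3.00.03, TopHat2 2.0.8, SAMtools 0.1.18, cutadapt 1.0, Trim Galore 0.3.3 and build mm9. Peaks were called with a tool not given in the sources used here. Deposited RNA values were taken as FPKM made by the authors, although the lists name no unit. Deposited ChIP, CLIP and allelic lists hold a score per peak, made by the authors for each library. Read depth is unknown, and the lengths of the lists differ.

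Only chromosomes 1 to 19 and X were used. Peaks, sites, spacings and windows were computed with Python 3.11.15, pandas 2.3.3 and SciPy 1.17.1. Sites needed an overlap of at least 1 bp. RNA changes used a pseudocount of 1, a mean FPKM of at least 1 and a length of at least 300 bp. CLIP bases per Mb of peak bases plus 1 were tested on the log2 scale with limma 3.58.1 (R 4.3.3) and Benjamini-Hochberg adjustment.

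The spread in limma was first fitted without, and then with, a trend on the mean level. The trend was adopted after the results of the first fit had been seen. On simulated data of 12325 regions, 200 of them changed by a log2 of 3, the first fit recovered 0% and the second 29.5%. The simulated spread was made to depend on the mean level alone, as the second fit assumes. The simulation therefore cannot tell which fit suits the real data. Both fits called 0 regions of the deposited lists. A fit without the trend and with a pseudocount of 0.1, also run at that point, called 359 and is reported with the alternatives.

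The members and lists were chosen with earlier results of these data known. The 40 kb break between runs, the split of RNA rows by identifier, the peaks around row starts and the CLIP peaks over CTCF sites were chosen after values had been seen. Scores are printed for the 8 shared sites with the highest mean percentile, the 8 with the highest day 3 percentile among sites missing from a day 0 library, and sites of day 3 alone. RNA regions are named at an FPKM of at least 1, and CLIP regions and sites with peaks in at least 2 libraries. Low rows named beside CTCF peaks were picked after their values were seen. Gene names of other pathway members and markers were not checked, since rows have no names.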

Additional observations from a re-analysis of the deposited data

How the results depend on the processing

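The number of shared CTCF sites (54) was 56 with an overlap of 50% of the shorter peak, 46 with centres within 500 bp, 28 with scores at or above the list median, and 56 to 65 leaving out 1 day 0 library, when only 1 is left to share with. Their median spacing (7.18 kb) became 7.05, 8.57 and 13.7 kb under the first 3 of these and 6.46 to 7.09 kb leaving out a library. The share of day 3 peaks found in both day 0 libraries (81.2%) was 66.7% with centres within 500 bp and 66.7% with the score minimum. For these settings no share over all day 3 peaks is given, so they cannot be set beside the 67.5% of the 1 bp rule. Leaving out a library, it was 81.2% to 98.6%, against 68.9% to 86.7% of all day 3 peaks. The mean fold in peak density (3.89) was 5.21 with the score minimum. RNA counts (6 higher, 14 lower) became 4 and 1 for regions listed at both days.

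Regions of the span past the limma threshold in CLIP numbered 0, and 0 to 1 leaving out 1 library. Without the trend in the spread the count was 0 (smallest adjusted p 0.215 over all regions). Without the trend and with a pseudocount of 0.1, it was 1 of 359 called over all regions, the minus-strand region at 37800556, at a log2 difference of 8.55 and a limma adjusted p of 0.0453. These 2 fits were added after seeing the data. Without day 3 library 2, 377 regions were called over all chromosomes, and without day 3 library 1, 56. The difference of the region ending at 38001527 turned to 0.25 without day 3 library 1 and was -6.66 without day 3 library 2. Without either day 3 library, a lone sample stands for its day and is assumed to vary like day 0. With the replicate block, 0 regions of the span were called. Same-numbered libraries did not deviate together (correlation 0.0178 over regions), so the numbers were not taken as pairs. Without day 3 library 1 or 2, the minus-strand region at 37800556 has peaks in 1 library and gave no value. The causes of these shifts were not tested, and depth is unknown.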
